A study of Homo sapiens and Mus musculus with 30 samples.

Results

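U1, U4, U5A and U12 are small nuclear RNAs (snRNAs), the RNA parts of the particles that remove introns. They were 4 of the 13 RNAs for which the human RiboMeth-seq files hold read ends, and every row with these names was taken. Of 30 samples in the series, 16 were human, and the files of 14 of those held the 4 RNAs, in 45 libraries. The SNORD52 knock-out samples, 2 of the 16, were not analysed here for that reason.

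The samples were H9 human embryonic stem cells with constitutive transgene expression of the small nucleolar RNA SNORD52 (samples OE1 and OE2), endoderm and mesoderm made by directed differentiation of H9, of HUES4 (a second embryonic stem cell line) and of KOLF2 (an induced pluripotent line), and 3 neural stages of H9: early precursors after neural induction, late precursors after neural differentiation, and mature neurons after maturation. They were compared with the undifferentiated, unedited cells of the same 3 lines. The lines carried a wild-type genotype apart from the transgene. Whether OE1 and OE2 are separate clones is not stated in the labels. Each sample had 3 libraries, and undifferentiated H9 had 6. The series text calls the replicates biological triplicates.

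U1 base-pairs with the 5′ splice site at the start of an intron. U4 holds U6 RNA in an inactive pairing until the spliceosome is activated, and U5 aligns the exon ends through a conserved loop. U12 is the counterpart of U2 in the minor spliceosome, where it pairs with the branch site of a rare class of introns. These RNAs carry 2′-O-methyl groups on the ribose, most of them placed by guide RNAs of the Cajal body. In RiboMeth-seq, RNA is broken by alkali and the fragment ends are counted at each nucleotide. A 2′-O-methyl group blocks cleavage next to it, so a methylated nucleotide has few ends. The deposited score runs from 0, for as many ends as at the neighbouring nucleotides, to 1, for no ends.

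From general knowledge, 9 known 2′-O-methyl nucleotides were listed for the 4 RNAs. The sequences of U1, U4 and U12 below are those of the deposited files, 5′ to 3′, because each score belongs to a nucleotide in them. Capitals mark the listed nucleotides.
U1: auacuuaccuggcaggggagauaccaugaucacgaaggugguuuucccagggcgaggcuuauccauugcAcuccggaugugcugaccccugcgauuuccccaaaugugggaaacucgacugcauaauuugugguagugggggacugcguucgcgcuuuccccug
U4: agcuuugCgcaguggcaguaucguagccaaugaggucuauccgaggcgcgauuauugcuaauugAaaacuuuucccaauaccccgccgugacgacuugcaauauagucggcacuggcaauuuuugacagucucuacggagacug
U12: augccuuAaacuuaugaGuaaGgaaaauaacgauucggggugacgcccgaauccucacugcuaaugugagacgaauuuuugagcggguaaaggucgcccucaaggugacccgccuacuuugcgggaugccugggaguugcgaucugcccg

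Positions count from 1 at the 5′ end of each RNA. Am70 of U1 lies in the run auugcacucc at positions 65 to 74, the loop bound by the U1A protein. U1 pairs with the 5′ splice site through acuuaccu at positions 3 to 10. Gm37, Um41 and Cm45 of U5A lie in loop I, at positions 37 to 45. Gm37 is the first and Cm45 the last nucleotide of that loop. Cm8 of U4 lies in its 5′ region, which pairs with U6, and Gm18 and Gm22 of U12 lie in the region that pairs with the branch site. By name, U1 (164 nucleotides) matched the RefSeq genes RNU1-1, RNU1-2, RNU1-3 and RNU1-4, all of the same length, and U5A (117) and U12 (150) matched RNU5A-1 and RNU12. U4 had 144 nucleotides in the files and RNU4-1 and RNU4-2 had 145 in RefSeq. Reads of near-identical copies of these genes, and of U5 variants, cannot be told apart in these counts.

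Libraries held between 2077453 and 42703107 read ends (median 22192399), most of them in 18S and 28S ribosomal RNA (rRNA). The shallowest library was of KOLF2 endoderm. H9 mesoderm stood apart, with 18S at 37.9% of 18S plus 28S ends against 30.1% to 34.9% in the other 13 samples. Libraries carried 6 index sequences in 2 sets of 3. All germ layer, early precursor and SNORD52 OE libraries carried set 2, the undifferentiated HUES4 and KOLF2, late precursor and mature neuron libraries carried set 1, and undifferentiated H9 had 3 libraries of each. Index and group therefore cannot be told apart in HUES4 and KOLF2, and values within 1 set are given where H9 allows. The labelled cell types could not be checked, since the assay holds no mRNA. SNORD52 itself is not among the RNAs. The score at Um3904 of 28S rRNA, the nucleotide it guides, was 0.893 ± 0.0340 in OE1 and 0.895 ± 0.0424 in OE2, against 0.825 ± 0.152 in undifferentiated H9, 0.598 ± 0.139 in HUES4 and 0.722 ± 0.214 in KOLF2 (SD over libraries). The OE samples overlapped H9 at that site, with a difference from the 3 lines of 0.179 ± 0.0566 (limma, adjusted p = 0.133).

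The listed sites were the highest-scoring positions of each RNA when scores were averaged over the 14 samples. Am70 of U1 scored 0.876 ± 0.0562 (SD over samples, n = 14) and ranked first of 152 scored positions. Gm37, Cm45 and Um41 of U5A scored 0.938 ± 0.0174, 0.904 ± 0.0409 and 0.818 ± 0.0530 and took the first 3 ranks of 105. Am65 and Cm8 of U4 scored 0.908 ± 0.0540 and 0.654 ± 0.112 and took the first 2 of 132. Am8, Gm18 and Gm22 of U12 scored 0.950 ± 0.0426, 0.886 ± 0.106 and 0.876 ± 0.113 and took the first 3 of 137. Taken sample by sample, the listed sites held the top ranks in 14 of 14 samples for U1, 12 for U12, 11 for U5A and 4 for U4. The 517 unlisted positions had a median score of 0.152. Cm8 was the lowest-scoring of the 9 and the most variable among the sites of U1, U4 and U5A.

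**Figure D1:**
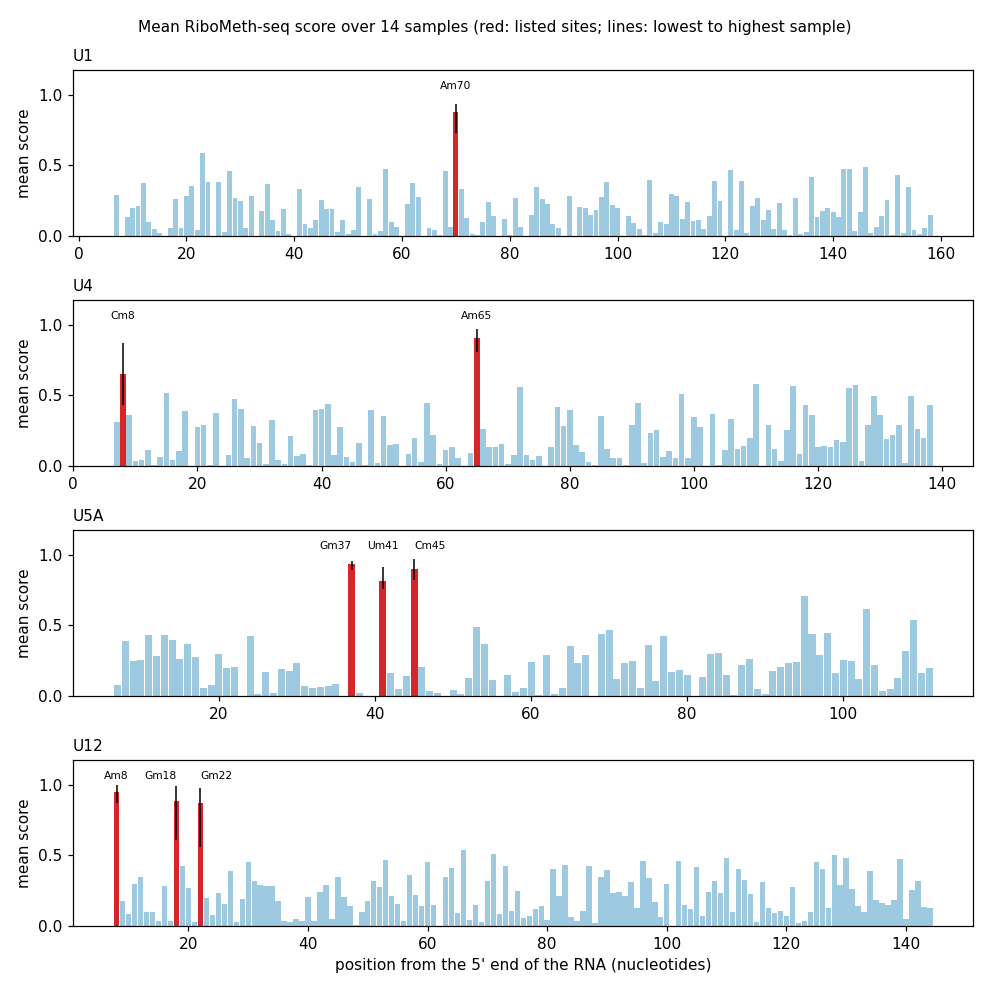
Mean RiboMeth-seq score (y axis, a fraction) at each scored position of the 4 RNAs (x axis, nucleotides from the 5′ end). Bars are means over 14 samples, red bars are the listed sites, and black lines run from the lowest to the highest sample mean. Red bars are the tallest of each RNA, and the tallest blue bar is U5A position 95 at 0.710.

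The highest unlisted positions were 95 (0.710 ± 0.0877), 103 (0.616 ± 0.108), 109, 53 and 70 in U5A, and 23 (0.590 ± 0.0451), 146, 143, 142 and 57 in U1. In U4 they were 110 (0.582 ± 0.160), 126 (0.573 ± 0.225), 116, 72 and 125, and in U12 66 (0.541 ± 0.0914), 71, 128, 110 and 130. None of these 20 reached a mean of 0.75, a level that 8 of the 9 listed sites passed, Cm8 being the exception. The alkaline pattern also varies with base and structure, so a middling score was not read as methylation.

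The amount of each RNA was taken as its read ends per 1000000 18S plus 28S ends of the same library, written EPM. Per nucleotide, averaged over the 14 samples, U1 had 41.8 ± 14 EPM, U5A 9.52 ± 3.65, U4 6.17 ± 2.54 and U12 1.07 ± 0.428 (SD, n = 14). On the same scale U2 had 25.04 ± 7.80 and U6 14.8 ± 4.80. U1 was thus the most abundant of the 6 snRNAs in the files and U12 the least. In these bulk samples a change in the mix of cells and a change in RNA per cell cannot be told apart, nor can a change of the snRNA and an opposite change of the rRNA.

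All 4 snRNAs had more read ends in differentiated than in undifferentiated cells. U1 averaged 6973 ± 958, 6353 ± 896 and 6739 ± 929 EPM in endoderm of H9, HUES4 and KOLF2 (SD, n = 3 libraries each). It averaged 10578 ± 1183, 8198 ± 681 and 8469 ± 560 in mesoderm of these lines, against 3242 ± 405 (n = 6), 3334 ± 547 and 4728 ± 823 in the undifferentiated cells. From early to late H9 precursors to mature neurons it averaged 7310 ± 1065, 9181 ± 603 and 10053 ± 871. Every library of each germ layer lay above every undifferentiated library of its own line, in all 3 lines. The 3 undifferentiated samples were the lowest 3 of the 14, H9 mesoderm the highest, and in this order 12 of 13 neighbouring samples had overlapping libraries.

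U4, the RNA that chaperones U6, averaged 789 ± 140, 742 ± 166 and 722 ± 81.9 EPM in endoderm of H9, HUES4 and KOLF2. In mesoderm it averaged 1480 ± 54.2, 1055 ± 48.8 and 1120 ± 56.4, against 522 ± 92.6, 422 ± 24.1 and 489 ± 40.6 in the undifferentiated cells of these lines. The neural stages stood at 1502 ± 99.1 (early), 1144 ± 194 (late) and 1258 ± 65.1 (mature). Early precursors had the highest U4 mean of the 14 samples, with libraries that overlapped those of H9 mesoderm. Mesoderm lay above undifferentiated cells in every library of all 3 lines, and endoderm did so in 2 of 3 lines.

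U5A, which holds the exon ends, averaged 1038 ± 63.6, 962 ± 230 and 1007 ± 91.3 EPM in endoderm of the 3 lines in the same order. In mesoderm it averaged 1872 ± 264, 1187 ± 39.1 and 1198 ± 51.7, against 612 ± 67.0, 539 ± 152 and 683 ± 132 in undifferentiated cells. The neural stages stood at 1679 ± 235, 1451 ± 440 and 1718 ± 271 from early precursors to mature neurons. Their libraries overlapped one another, and all lay above every undifferentiated H9 library.

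U12, the minor-spliceosome RNA, was the scarcest, with as few as 350 ends in a library of KOLF2 endoderm. It averaged 174 ± 21.7, 156 ± 35.5 and 173 ± 26.4 EPM in endoderm of H9, HUES4 and KOLF2. In mesoderm it averaged 272 ± 35.1, 154 ± 18.3 and 162 ± 9.83, against 93.2 ± 15.6, 78.8 ± 15.2 and 84.9 ± 21.6 in undifferentiated cells. Both germ layers lay above undifferentiated cells in every library of all 3 lines. The neural stages stood at 177 ± 9.60, 242 ± 46.8 and 265 ± 37.7 from early to mature, and early libraries did not overlap late ones.

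**Figure D2:**
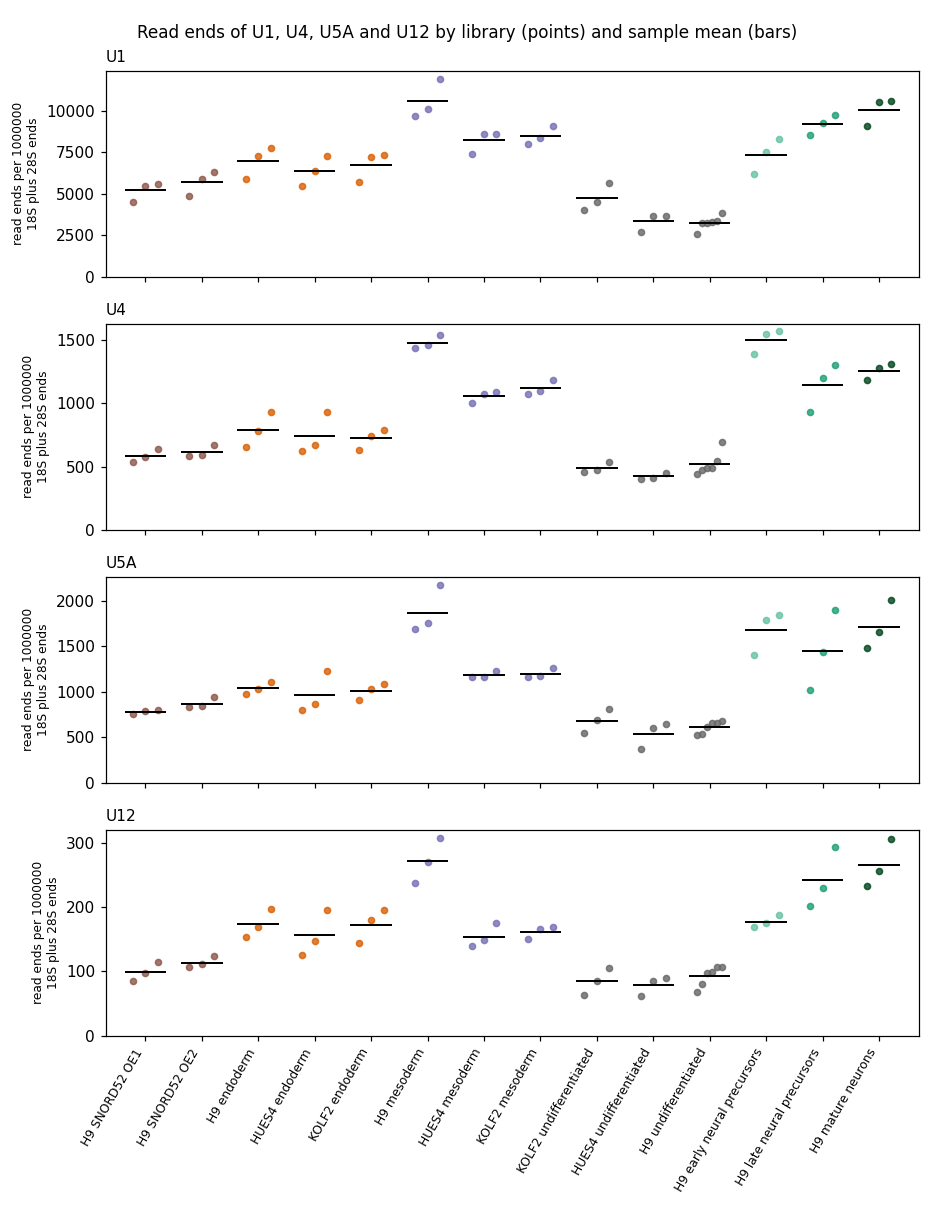
Read ends per 1000000 18S plus 28S ends (y axis, from 0) of U1, U4, U5A and U12 in 14 samples (x axis). Points are libraries and bars are sample means. The 3 undifferentiated samples (grey) are the lowest of each panel, with U1 means of 3242, 3334 and 4728.

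The first comparison asked whether germ layer cells differ from the undifferentiated cells of the same lines. Read ends were tested with edgeR's quasi-likelihood test over 11 RNAs, with the cell line as a block and p-values adjusted by the Benjamini-Hochberg method. In endoderm all 4 snRNAs rose, and 36.4% of the 11 RNAs were called, which is these 4. The log2 ratio of endoderm over undifferentiated cells was 0.84 ± 0.26 (adjusted p = 0.0109) for U1, 0.64 ± 0.23 (adjusted p = 0.0190) for U4, 0.71 ± 0.23 (adjusted p = 0.0109) for U5A and 1.02 ± 0.24 (adjusted p = 0.00115) for U12. The median log2 ratio was 0.78 over these 4 and 0.21 over all 11. Of the other snRNAs in the files, neither U2 (log2 0.36, adjusted p = 0.324) nor U6 (log2 -0.05, adjusted p = 0.810) passed. All 4 calls were lost without HUES4, at log2 0.80 (adjusted p = 0.455) for U1 and 1.04 (adjusted p = 0.273) for U12. They were lost without KOLF2 too, at 1.01 (adjusted p = 0.0849) for U1 and 0.96 (adjusted p = 0.0849) for U12, and kept without H9.

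In mesoderm, set against the same undifferentiated samples, all 4 snRNAs rose, where 54.5% of the 11 RNAs were called. The log2 ratio of mesoderm over undifferentiated cells was 1.27 ± 0.26 (adjusted p = 4.20e-05) for U1, 1.32 ± 0.23 (adjusted p = 7.69e-06) for U4, 1.20 ± 0.23 (adjusted p = 2.36e-05) for U5A and 1.17 ± 0.24 (adjusted p = 4.20e-05) for U12. U2 (log2 0.81, adjusted p = 0.00491) and U8, a small nucleolar RNA, rose too, and U6 did not pass (adjusted p = 0.0774). Without H9, whose mesoderm sample stood apart, all 4 were still called, at log2 1.04 for U1, 1.23 for U4, 0.97 for U5A and 0.96 for U12. Scaled to U2 ends instead of rRNA ends, all 4 remained above undifferentiated cells in mesoderm (log2 0.37 to 0.54). In endoderm U1, U5A and U12 remained so, and U4 did not pass (0.30, adjusted p = 0.0631).

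Within H9, where libraries of the same index set could be compared, the direction was the same for all 4 RNAs in both layers. With libraries as units, the log2 ratio of H9 endoderm over undifferentiated H9 was 1.12 for U1, 0.55 for U4, 0.85 for U5A and 1.08 for U12, each called. That of H9 mesoderm was 1.72, 1.46, 1.71 and 1.73 in the same order, each called. In that sample RNAs outside the 4 had more ends too: over all undifferentiated H9 libraries, U2 was 2.31-fold, U6 2.16-fold and 5S 1.82-fold. In HUES4 and KOLF2 mesoderm U2 was 1.58-fold and 1.52-fold, U6 1.02-fold and 1.04-fold, and 5S 0.663-fold and 0.920-fold. Between the sets, undifferentiated H9 had U1 at 3280 ± 36.8 in set 1 and 3205 ± 636 in set 2, and U12 at 104 ± 4.84 and 82.0 ± 14.5.

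Mesoderm was also set against endoderm. U4 rose, with a log2 ratio of mesoderm over endoderm of 0.68 ± 0.23 (adjusted p = 0.0230), where 18.2% of the 11 RNAs were called. U1 (0.43 ± 0.26), U5A (0.49 ± 0.23) and U12 (0.15 ± 0.24) did not pass. Within H9 alone all 4 were called higher in mesoderm, the sample that stood apart. The U4 call was lost without HUES4 (log2 0.77, adjusted p = 0.400) and without KOLF2 (log2 0.73, adjusted p = 0.133). It was also lost on the U2 scale (log2 0.25, adjusted p = 0.279), where U12 was lower in mesoderm instead (log2 -0.30, adjusted p = 0.0428).

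**Figure D3:**
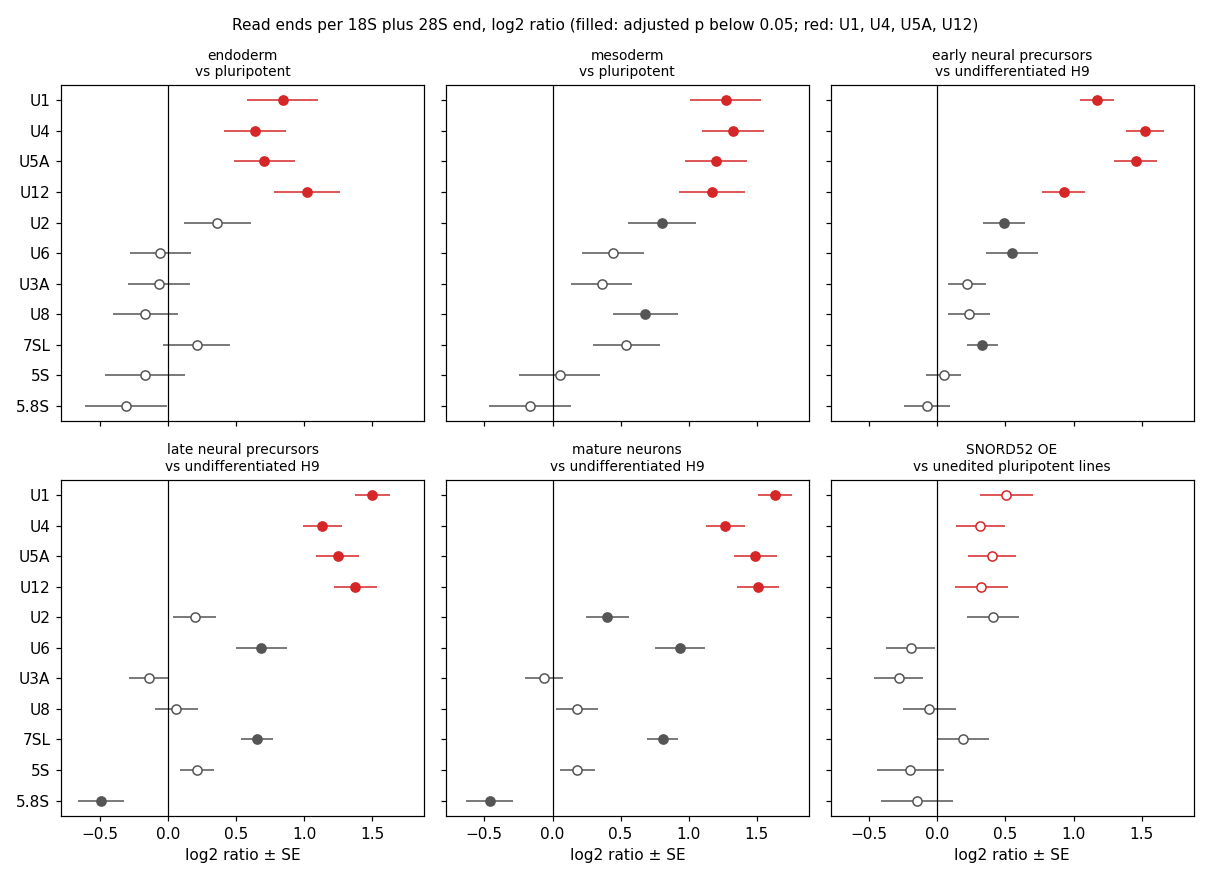
Log2 ratio of read ends per 18S plus 28S end (x axis, ± SE) for 11 RNAs (y axis) in 6 comparisons, each over undifferentiated cells. Red points are U1, U4, U5A and U12, grey points the other RNAs, and filled points have an adjusted p below 0.05. The 4 red points are filled in each differentiation panel and open in the SNORD52 OE panel, where U1 stands at 0.51.

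The neural comparison took the 15 H9 libraries as units, since each stage is a single sample. All 4 snRNAs rose at each stage relative to undifferentiated H9, where 63.6% of the 11 RNAs were called in early precursors, all higher. The share was 63.6% at the late stage (54.5% higher) and 72.7% in mature neurons (63.6% higher). The 3 stages share their undifferentiated libraries. In early precursors the log2 ratio was 1.17 ± 0.13 (adjusted p = 1.51e-08) for U1, 1.53 ± 0.14 (adjusted p = 2.19e-09) for U4, 1.46 ± 0.16 (adjusted p = 1.51e-08) for U5A and 0.93 ± 0.16 (adjusted p = 1.42e-05) for U12. In late precursors it was 1.50 ± 0.13 for U1, 1.13 ± 0.14 for U4, 1.25 ± 0.16 for U5A and 1.38 ± 0.16 for U12, with adjusted p of at most 1.83e-07. In mature neurons it was 1.63 ± 0.13, 1.27 ± 0.14, 1.49 ± 0.16 and 1.51 ± 0.16 in that order, with adjusted p of at most 1.79e-08. The U4 mean was highest in early precursors and the U1 mean in mature neurons, and the early stage was not tested against the later ones.

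U2 rose in early precursors (log2 0.49) and mature neurons (0.40), and U6 at all 3 stages (0.55, 0.69 and 0.94). On the U2 scale the 4 snRNAs were still called higher at each stage. Against the undifferentiated H9 libraries of the same index set, all 4 were called at each stage as well. Mature neurons did not differ detectably from late precursors: U1 had a log2 ratio of 0.13 ± 0.15, U4 0.14 ± 0.17, U5A 0.24 ± 0.19 and U12 0.13 ± 0.19. Of the 11 RNAs, 0 were called with edgeR in that comparison, and 0 had an unadjusted p below 0.05.

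The per-nucleotide ratio of U1 to U4 ends was 4.26 ± 0.401 at the early stage, 7.15 ± 0.921 at the late stage and 7.05 ± 0.903 in mature neurons, against 5.56 ± 1.01 in undifferentiated H9. The ratio of U4 to U5A was 0.741 ± 0.150, 0.663 ± 0.129 and 0.603 ± 0.0756 at the same stages, against 0.706 ± 0.190 in undifferentiated H9, and the libraries of every stage overlapped the undifferentiated ones. U1 and U2 recognise opposite ends of the intron. Their ratio was 1.52 ± 0.185 early, 2.33 ± 0.291 in late precursors and 2.21 ± 0.349 in mature neurons. In undifferentiated H9 it was 0.947 ± 0.0984, with no overlap of libraries. Undifferentiated HUES4 and KOLF2 had higher ratios than H9, 1.34 ± 0.239 and 1.77 ± 0.345. The KOLF2 libraries, at 1.55 to 2.17, overlapped those of every stage. These ratios were not tested.

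The SNORD52 comparison asked whether cells with the transgene differ from unedited undifferentiated cells. U1 averaged 5191 ± 600 EPM in OE1 and 5676 ± 743 in OE2, against 3242, 3334 and 4728 in undifferentiated H9, HUES4 and KOLF2. U5A averaged 778 ± 23.3 and 869 ± 60.1 in OE1 and OE2, against 612, 539 and 683. U4 averaged 584 ± 51.5 and 618 ± 48.0 in them, against 522, 422 and 489, and U12 99.2 ± 14.3 and 114 ± 8.91, against 93.2, 78.8 and 84.9. In each of the 4 RNAs both OE means lay above all 3 undifferentiated means. The same held for U2, outside the 4, at 4510 to 4728 EPM in the OE samples against 2944 to 3977 in the undifferentiated ones. With 2 samples against 3, edgeR called 0 of the 11 RNAs (0%), and 3 had an unadjusted p below 0.05, U1, U5A and U2. The log2 ratio of U2 was 0.41. The log2 ratio of OE over unedited cells was 0.51 ± 0.19 (adjusted p = 0.144) for U1, 0.32 ± 0.18 (adjusted p = 0.222) for U4, 0.40 ± 0.18 (adjusted p = 0.144) for U5A and 0.32 ± 0.20 (adjusted p = 0.222) for U12. Against H9 alone, with libraries as units, U1 (0.74, adjusted p = 3.42e-05) and U5A (0.43, adjusted p = 7.33e-04) rose. These p-values measure the spread between libraries of the 2 OE samples and the single H9 sample. On the U2 scale the ratio of U1 was 0.07 (adjusted p = 0.861). U1 was also called when KOLF2 was left out (log2 0.72, adjusted p = 0.0158).

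Scores were tested with limma over all positions of the 13 RNAs with a mean score of at least 0.2 and at least 50 ends on average at the 12 neighbours in every unit. Of the 9 listed sites, 4 met these limits in each comparison: Am70 of U1 and Gm37, Um41 and Cm45 of U5A. In the germ layer and SNORD52 fits a unit was a sample, with ends averaged over its libraries. Single libraries could therefore fall lower, as in KOLF2 endoderm, with 26.1 neighbour ends at Um41 in 1 library. Both U4 sites and the 3 U12 sites fell under the limit on ends and are described further on.

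Am70 of U1 had higher mean scores in germ layer and neural cells than in undifferentiated, unedited cells. It scored 0.873 ± 0.0306, 0.887 ± 0.0217 and 0.904 ± 0.0277 in endoderm of H9, HUES4 and KOLF2 and 0.919 ± 0.0255, 0.921 ± 0.0105 and 0.915 ± 0.00733 in mesoderm (SD over 3 libraries). Undifferentiated cells of these lines scored 0.836 ± 0.0515 (n = 6), 0.733 ± 0.0607 and 0.808 ± 0.0111. Mesoderm libraries lay above all undifferentiated libraries of their line in all 3 lines, and endoderm libraries did so in HUES4 and KOLF2 but overlapped in H9. The lowest sample was undifferentiated HUES4, at 0.692 to 0.802. OE1 and OE2, undifferentiated cells of the layers' index set, had libraries at 0.819 to 0.868 and 0.848 to 0.894. Both overlapped H9 endoderm, at 0.851 to 0.908.

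Endoderm exceeded undifferentiated cells at Am70 by 0.0956 ± 0.0210 (adjusted p = 0.0124), where 17.2% of 3146 tested positions were called. Mesoderm exceeded them by 0.126 ± 0.0210 (adjusted p = 0.00256), where 24.1% were called. Mesoderm and endoderm did not differ detectably (0.0305 ± 0.0210, adjusted p = 0.635), and 1.75% of positions were called there. Both calls were lost without HUES4, when the differences were 0.0661 (adjusted p = 0.130) in endoderm and 0.0950 (adjusted p = 0.0505) in mesoderm. In H9 libraries of index set 2 the mesoderm difference was 0.0720 (adjusted p = 0.0401) and that of endoderm 0.0256 (adjusted p = 0.485). Both were lost with a variance prior without trend, at adjusted p = 0.172 in endoderm and 0.0760 in mesoderm. The general level of scores, the median over 100 rRNA positions with a mean score of at least 0.75, moved the other way in the germ layers. It was 0.899 to 0.919 in germ layer samples, against 0.942 to 0.957 in undifferentiated, unedited ones. OE1 and OE2, undifferentiated cells of index set 2, stood at 0.908 and 0.915. Samples wholly of set 1 stood at 0.944 to 0.961 and those wholly of set 2 at 0.899 to 0.946. The part of the index set in this level was not tested.

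Along the neural stages Am70 scored 0.933 ± 0.0241 early, 0.908 ± 0.0165 late and 0.922 ± 0.00883 in mature neurons, against 0.836 ± 0.0515 in undifferentiated H9. The libraries of every neural stage lay above the highest undifferentiated library, at 0.886. The difference from undifferentiated H9 was 0.0972 ± 0.0231 (adjusted p = 0.0125) early, 0.0722 ± 0.0231 (adjusted p = 0.0519) late and 0.0864 ± 0.0231 (adjusted p = 0.0237) in mature neurons, so the late stage missed the threshold. Here the rRNA level moved the same way as the site, at 0.946 (early), 0.957 (late) and 0.961 (mature), against 0.942 in undifferentiated H9, whose libraries ran from 0.925 to 0.959. The same levels stand beside the neural values of the U5A and U4 sites below. The shares of 2733 tested positions called were 9.07%, 11.1% and 9.11% at these stages. These calls were near the threshold. The early one was lost within index set 2 (0.0862, adjusted p = 0.131) and without early library 2 (0.0857, adjusted p = 0.0557). The mature one was lost without any single mature library and with scores divided by the library's rRNA level (0.0677, adjusted p = 0.0714). The late difference was called without undifferentiated library 3 (0.0543), 5 or 6. In OE1 and OE2 the site scored 0.837 ± 0.0269 and 0.871 ± 0.0231, a difference from the 3 unedited lines of 0.0619 ± 0.0323 (adjusted p = 0.320), and these libraries overlapped those of H9.

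**Figure D4:**
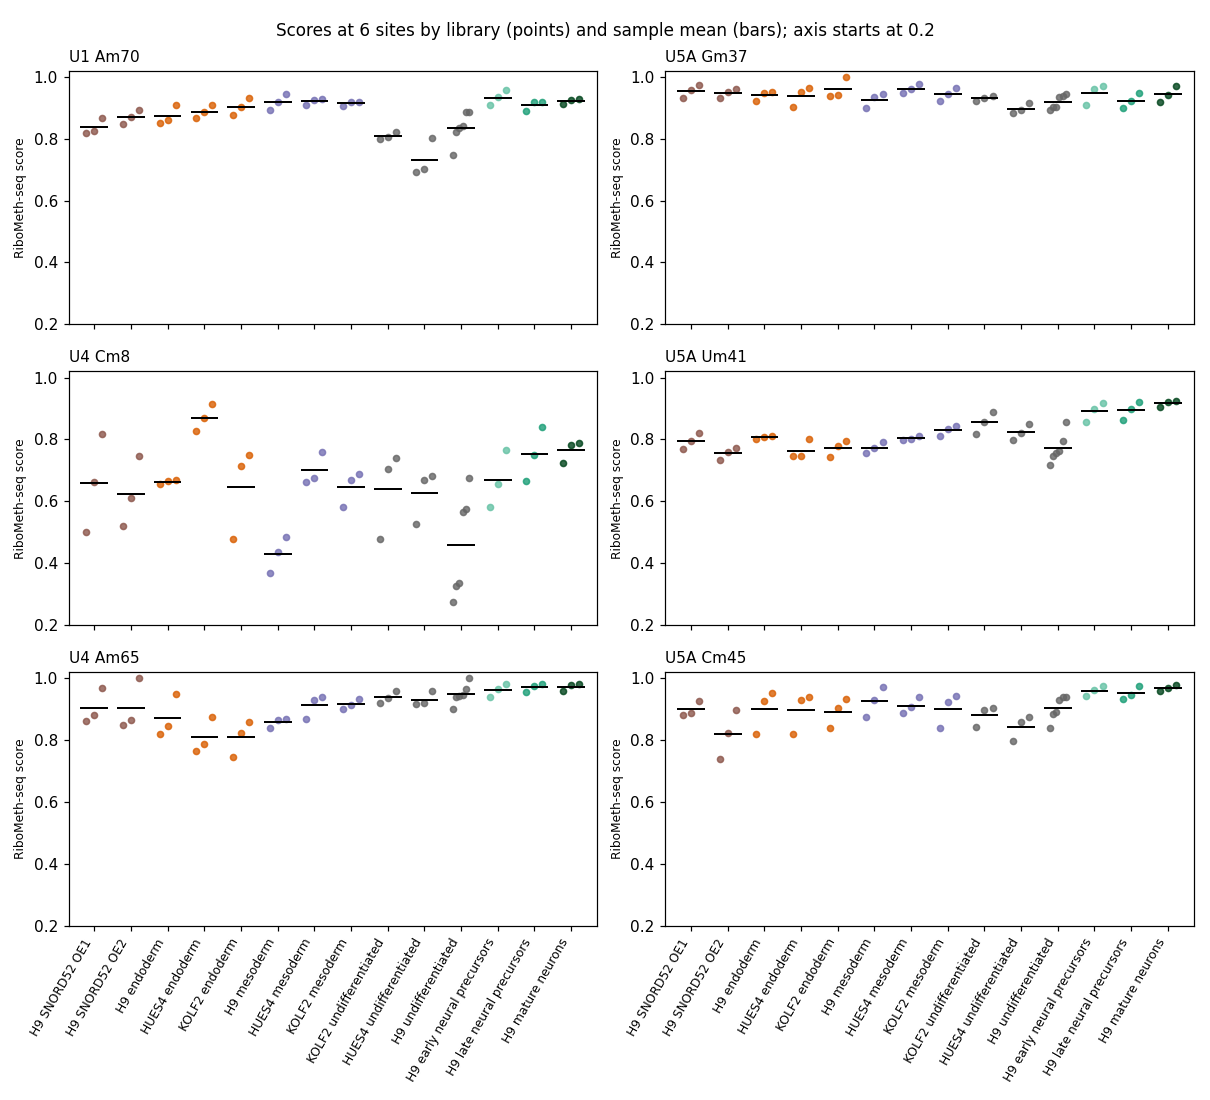
RiboMeth-seq score (y axis, a fraction, from 0.2) at 6 sites of U1, U4 and U5A in 14 samples (x axis). Points are libraries and bars are sample means. At Am70 of U1 the undifferentiated samples (grey) have the lowest 3 means, 0.733 to 0.836, and at Um41 of U5A the mature neurons have the highest, 0.917.

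Um41, the middle site of U5 loop I, rose at all 3 neural stages. It scored 0.891 ± 0.0324 early, 0.895 ± 0.0294 late and 0.917 ± 0.0117 in mature neurons, against 0.772 ± 0.0488 in undifferentiated H9. Mature neuron and late precursor libraries lay above all 6 undifferentiated ones, whose highest was 0.858, and the lowest early precursor library, at 0.855, did not. The difference from undifferentiated H9 was 0.119 ± 0.0245 (adjusted p = 0.00566) early, 0.122 ± 0.0245 (adjusted p = 0.00348) late and 0.145 ± 0.0245 (adjusted p = 8.74e-04) in mature neurons. Against undifferentiated libraries of the same index set it was 0.146 (adjusted p = 0.0548), 0.0955 (adjusted p = 0.0227) and 0.118 (adjusted p = 0.00916) in that order, so the early call was lost. With scores divided by the rRNA level it was 0.114, 0.106 and 0.125, each called. Undifferentiated HUES4 and KOLF2 scored 0.823 ± 0.0255 and 0.855 ± 0.0345 at this site, so H9, the line with neural samples, had the lowest undifferentiated mean.

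In the germ layers Um41 scored 0.807, 0.764 and 0.772 in endoderm and 0.773, 0.803 and 0.830 in mesoderm of H9, HUES4 and KOLF2. The difference from undifferentiated cells was -0.0358 ± 0.0238 (adjusted p = 0.316) in endoderm and -0.0149 ± 0.0238 (adjusted p = 0.680) in mesoderm, and neither passed. Without H9 the endoderm difference was called (-0.0709, adjusted p = 0.0298), and in H9 libraries of index set 2 it had the opposite sign (0.0612, adjusted p = 0.122). OE1 and OE2 scored 0.795 ± 0.0272 and 0.755 ± 0.0189, -0.0414 ± 0.0300 (adjusted p = 0.465) from the unedited lines.

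Cm45, the last nucleotide of the loop, scored 0.959 ± 0.0166 early, 0.952 ± 0.0204 late and 0.969 ± 0.00968 in mature neurons, against 0.904 ± 0.0397 in undifferentiated H9. Mature neurons rose by 0.0646 ± 0.0182 (adjusted p = 0.0330). That call was lost without any single mature library, without undifferentiated library 1 or 2, and with scores divided by the rRNA level (0.0454, adjusted p = 0.0964). The early difference was called without undifferentiated library 4 (0.0621) or 6. Within index set 1 the late difference was called (0.0678, adjusted p = 0.0315). Early (0.0550 ± 0.0182, adjusted p = 0.0683) and late precursors (0.0478 ± 0.0182, adjusted p = 0.102) did not pass, although all libraries of early precursors lay above the highest undifferentiated one, at 0.940. In endoderm the site scored 0.892 to 0.899 and in mesoderm 0.901 to 0.926 (sample means), against 0.843 to 0.904 in undifferentiated cells, and neither difference passed (0.0198 ± 0.0142 and 0.0365 ± 0.0142). OE1 and OE2 scored 0.900 ± 0.0246 and 0.819 ± 0.0787, with overlapping libraries, and together differed from the unedited lines by -0.0170 ± 0.0276 (adjusted p = 0.755).

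Gm37, the first nucleotide of the loop, had the smallest SD over samples of the 9 sites. Its 14 sample means ran from 0.897 in undifferentiated HUES4 to 0.961 in HUES4 mesoderm. It scored 0.941 ± 0.0154, 0.939 ± 0.0323 and 0.960 ± 0.0346 in endoderm and 0.927 ± 0.0233, 0.961 ± 0.0149 and 0.944 ± 0.0204 in mesoderm, against 0.920 ± 0.0219, 0.897 ± 0.0159 and 0.931 ± 0.00728 in undifferentiated H9, HUES4 and KOLF2. At 1 shallow KOLF2 endoderm library it had 0 ends and hence a score of 1. No comparison passed. The difference from undifferentiated cells was 0.0310 ± 0.0123 (adjusted p = 0.104) in endoderm and 0.0280 ± 0.0123 (adjusted p = 0.119) in mesoderm. At the neural stages it was 0.0270 ± 0.0165 (adjusted p = 0.320) early, 0.00331 ± 0.0165 (adjusted p = 0.939) late and 0.0239 ± 0.0165 (adjusted p = 0.404) in mature neurons. OE1 and OE2 scored 0.954 ± 0.0211 and 0.948 ± 0.0156, 0.0349 ± 0.0137 (adjusted p = 0.207) from the unedited lines, where 1.58% of 3109 positions were called and none of the 4 sites. Gm37 was the 1 of these 4 with an unadjusted p below 0.05 there. With each score divided by its library's rRNA level, Gm37 was called higher in endoderm (0.0708), mesoderm (0.0659) and the OE samples (0.0714), but not at a neural stage.

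Mature neurons and late precursors did not differ detectably at any of the 4 sites. The differences, mature minus late, were 0.0143 ± 0.0266 at Am70, 0.0206 ± 0.0191 at Gm37, 0.0224 ± 0.0283 at Um41 and 0.0167 ± 0.0210 at Cm45. With limma 0 of 2733 positions were called (0%), and 0 of these 4 sites had an unadjusted p below 0.05.

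The 2 U4 sites, Cm8 and Am65, had a median of 81.4 and 97.3 neighbour ends per library. They were tested at a limit of 20 ends, and at 50 ends only where leaving out a cell line, a library or an index set brought 1 of them over that limit. Am65 scored 0.872 ± 0.0697, 0.809 ± 0.0583 and 0.809 ± 0.0589 in endoderm and 0.858 ± 0.0144, 0.913 ± 0.0397 and 0.916 ± 0.0160 in mesoderm, against 0.950 ± 0.0325, 0.932 ± 0.0226 and 0.939 ± 0.0190 in undifferentiated H9, HUES4 and KOLF2. Endoderm had the lowest means of the 14 samples in HUES4 and KOLF2, where all its libraries lay below the undifferentiated ones, and it overlapped in H9. In KOLF2 endoderm the lowest library had 12 neighbour ends at Am65 and the median library 17.6. That sample met the limit of 20 ends only by its mean over libraries, and its summed score was 0.852. In HUES4 and KOLF2 index set and group coincide. Undifferentiated H9 scored 0.9695 in index set 1 and 0.9296 in set 2, the set of the layers. OE1 and OE2, also of set 2, each scored 0.904. Their difference from the unedited lines at the limit of 20 ends was -0.036 (limma, adjusted p = 0.157). At the lower limit Am65 fell by 0.110 in endoderm (adjusted p = 0.00675), and the mesoderm difference was -0.0446 (adjusted p = 0.138). Without H9, at the limit of 50 ends, it fell by 0.126 in endoderm (adjusted p = 0.00448). Mesoderm over endoderm, 0.0655 at the lower limit (adjusted p = 0.160), was called without H9 (0.105, adjusted p = 0.0203). The neural stages scored 0.962 ± 0.0198, 0.971 ± 0.0128 and 0.973 ± 0.0124 from early precursors to mature neurons, and none passed. The drop in endoderm goes the same way as the rRNA level of these libraries, and the part of that level in it was not tested.

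Cm8 spread more between libraries than the other sites of U1, U4 and U5A. It scored 0.668 ± 0.0924 early, 0.752 ± 0.0866 late and 0.766 ± 0.0364 in mature neurons, against 0.459 ± 0.166 in undifferentiated H9, whose 6 libraries ran from 0.276 to 0.674. At the limit of 20 ends the late (0.293, adjusted p = 0.0189) and mature (0.307, adjusted p = 0.0174) stages rose. Early precursors did not pass (0.209, adjusted p = 0.0968), nor did they within index set 2 at 50 ends (0.2225, adjusted p = 0.423). In endoderm it scored 0.664 ± 0.00629, 0.871 ± 0.0433 and 0.648 ± 0.148 and in mesoderm 0.430 ± 0.0582, 0.700 ± 0.0523 and 0.647 ± 0.0565, against 0.459 ± 0.166, 0.626 ± 0.0871 and 0.641 ± 0.141 in undifferentiated H9, HUES4 and KOLF2. OE1 and OE2 scored 0.6605 and 0.6251, so unedited H9, the reference of the neural stages, had the lowest undifferentiated mean. HUES4 endoderm was the highest and H9 mesoderm the lowest of the 14 samples, and neither layer passed at the lower limit (0.152, adjusted p = 0.0592, in endoderm and 0.0169, adjusted p = 0.836, in mesoderm). Without KOLF2, at the limit of 50 ends, Cm8 rose in endoderm by 0.225 (adjusted p = 0.0262). In H9 libraries of index set 2 that difference was 0.218 (adjusted p = 0.0987). The neighbours of Cm8 reach to position 2, so its window takes in the start of the RNA.

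The 3 U12 sites rested on few ends, with medians of 9.08, 12 and 12.4 neighbour ends per library at Am8, Gm18 and Gm22. Am8 had 0 ends in 31 of 45 libraries, Gm18 in 16 and Gm22 in 12. Summed over the 45 libraries, Am8 had 20 ends where its neighbours averaged 544, a score of 0.963 (95% interval 0.943 to 0.978). Gm18 had 51 against 636, a score of 0.920 (95% interval 0.895 to 0.940), and Gm22 had 54 against 628, a score of 0.914 (95% interval 0.888 to 0.935). The intervals are exact Poisson intervals on the ends at the site. They take the neighbours as fixed and cover counting error only.

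By group, Am8 had 0 ends in all libraries of late precursors and of mature neurons. A count of up to 3 ends would still allow a score of 0.961 in the first and 0.968 in the second. The summed score of Am8 was 0.949 (95% interval 0.882 to 0.984) in endoderm and 0.924 (95% interval 0.836 to 0.972) in mesoderm, against 0.970 (95% interval 0.914 to 0.994) in undifferentiated cells. Gm18 had summed scores of 0.869 (95% interval 0.794 to 0.923) in endoderm, 0.921 (95% interval 0.850 to 0.964) in mesoderm and 0.979 (95% interval 0.923 to 0.997) in mature neurons, against 0.876 (95% interval 0.778 to 0.938) in undifferentiated cells. Gm22 had 0.869 (95% interval 0.790 to 0.924), 0.916 (95% interval 0.854 to 0.957) and 0.964 (95% interval 0.895 to 0.993) in these groups, against 0.900 (95% interval 0.810 to 0.954). These sums over endoderm, mesoderm and undifferentiated cells pool 3 lines, while the neural stages are H9 alone. Gm18 had 0.989 (95% interval 0.936 to 1.00) in late precursors. Undifferentiated H9 alone had 0.894 (95% interval 0.729 to 0.971) at Gm18 and 0.916 (95% interval 0.755 to 0.983) at Gm22. At Gm18 that was 4 ends where the neighbours averaged 37.7, beside 1 end of 87.7 in late precursors and 2 of 94.3 in mature neurons. These differences were not tested. The single score of 0 at Gm22, in a library of undifferentiated KOLF2, rested on a neighbour mean of 1.54 ends.

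**Figure D5:**
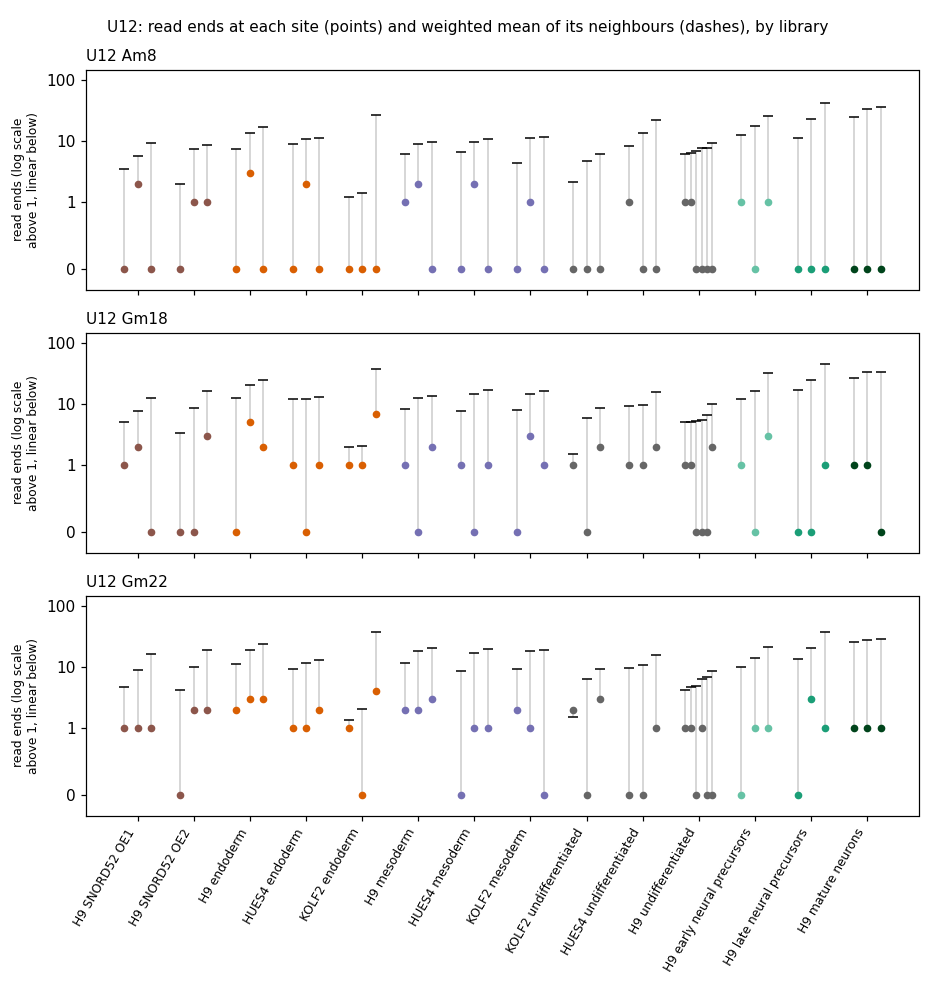
Read ends at the 3 U12 sites (points) and the weighted mean of their 12 neighbours (dashes) in each of 45 libraries, by sample (x axis). The y axis is logarithmic above 1 end and linear below it. Most Am8 points lie at 0 ends, 31 of 45.

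Outside the listed sites, 112 positions of U1, U4 and U5A were tested in the germ layer fit, 72 in the neural fit and 114 in the SNORD52 fit. In endoderm 13 of 112 were called (11.6%), 9 higher and 4 lower, where 11.4% of all positions were higher and 5.79% lower. In mesoderm 16 of 112 were called (14.3%), 12 higher and 4 lower, where 18.5% of all positions were higher and 5.59% lower. Both shares lay below the 17.2% and 24.1% of all positions. Mesoderm over endoderm gave 1 of 112 (0.893%), position 12 of U5A, which rose by 0.267 ± 0.0588 (adjusted p = 0.0460). Many of these calls depended on the fit. Without the cell-line block 5 of the 13 endoderm calls and 9 of the 16 mesoderm calls held, and position 12 of U5A was not called (adjusted p = 0.0769). A67 of U5A, G152 of U1 and A29 of U4 were among those lost, with adjusted p of 0.0503 to 0.0811 over both layers. Without HUES4 1 of the 13 and 1 of the 16 held, G146 of U1 in endoderm and A70 of U5A in mesoderm. Without H9 10 and 11 held, and without KOLF2 4 and 8. In H9 libraries of index set 2, 4 of the 9 endoderm calls tested there and 6 of the 10 mesoderm calls held, A70 of U5A and G146 and A35 of U1 among them in both layers. At the neural stages 5, 6 and 4 of 72 were called (6.94%, 8.33% and 5.56%), also below the shares of all positions. In the OE samples 3 of 114 were called (2.63%), where 1.58% of all positions were called.

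The unlisted positions called in most comparisons were A70 of U5A and G152 of U1, each in 4 of 8. A70 rose in both germ layers and at the late and mature neural stages. It scored 0.494 ± 0.0537 in endoderm and 0.679 ± 0.0668 in mesoderm, against 0.212 ± 0.0914 in undifferentiated, unedited cells (SD over 3 lines). The difference was 0.282 ± 0.0607 (adjusted p = 0.0114) in endoderm and 0.467 ± 0.0607 (adjusted p = 0.00127) in mesoderm. OE1 and OE2, undifferentiated cells of the same index set as the germ layers, scored 0.57 and 0.62, so a high A70 score was not particular to differentiated cells. H9 late precursor libraries scored 0.394 to 0.427 and mature neuron libraries 0.368 to 0.496, against 0.0451 to 0.308 in undifferentiated H9, so the groups did not overlap. A67, also of U5A, rose in both germ layers and in early precursors (0.446 ± 0.0795, adjusted p = 0.00206). OE1 and OE2 scored 0.263 and 0.266 at A67, inside the germ layer range of 0.114 to 0.565. Undifferentiated, unedited samples scored 0.0669 to 0.153 there.

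In U1, G146 rose by 0.422 ± 0.0577 (adjusted p = 0.00169) in endoderm and 0.353 ± 0.0577 (adjusted p = 0.00228) in mesoderm, scoring 0.698 ± 0.0334 and 0.629 ± 0.0629 there, against 0.276 ± 0.0841 in undifferentiated cells. A35 of U1 fell by 0.381 ± 0.0617 in endoderm and by 0.368 ± 0.0617 in mesoderm (adjusted p = 0.00352 and 0.00256). Germ layer samples scored 0.058 to 0.329 at A35 and undifferentiated, unedited ones 0.543 to 0.634. OE1 and OE2, undifferentiated cells of the layers' index set, scored 0.259 and 0.212, inside the germ layer range. At G146 they scored 0.448 and 0.427, between the layers and the unedited cells. G152 of U1 was called with opposite signs, higher in endoderm (0.235 ± 0.0736, adjusted p = 0.0485) and mesoderm (0.222 ± 0.0736, adjusted p = 0.0480), lower in late precursors (-0.282 ± 0.0498, adjusted p = 0.00140) and mature neurons (-0.307 ± 0.0498, adjusted p = 6.53e-04). The 2 directions came from different lines. In H9 the position scored 0.539 in endoderm and 0.553 in mesoderm, against 0.537 in undifferentiated cells, with differences of -0.0144 (adjusted p = 0.897) and -8.10e-04 (adjusted p = 0.994) within index set 2. HUES4 scored 0.561 and 0.579 in the layers, against 0.198, and KOLF2 0.582 and 0.512, against 0.243, and in these 2 lines index set and group coincide. The late and mature libraries, which are H9, scored 0.255 ± 0.0511 and 0.229 ± 0.0139, against 0.520 ± 0.0386 in undifferentiated H9 libraries of the same index set. In U4, U21 fell by 0.297 ± 0.0644 in endoderm (adjusted p = 0.0116) and by 0.372 ± 0.0644 in mesoderm (adjusted p = 0.00315). OE1 and OE2 scored 0.318 and 0.278 at U21, against 0.0382 to 0.268 in the layers and 0.297 to 0.579 in undifferentiated, unedited samples. A29 of U4 fell by 0.261 ± 0.0758 in endoderm (adjusted p = 0.0363) and by 0.235 ± 0.0758 in mesoderm (adjusted p = 0.0439). OE1 and OE2 scored 0.291 and 0.246 at A29, inside the germ layer range of 0.01 to 0.322. In the OE samples U30 of U1 rose by 0.438 ± 0.0801 (adjusted p = 0.0458), and C15 and U72 of U5A by 0.407 ± 0.0724 (adjusted p = 0.0424) and 0.389 ± 0.0659 (adjusted p = 0.0391). U72 was also called higher in endoderm (0.209 ± 0.0653, adjusted p = 0.0484), which is of the same index set. The alternative fits for unlisted positions covered the germ layer comparisons only, so the OE and neural calls at such positions were not checked that way.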

How the data were processed

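Read ends per nucleotide were measured by RiboMeth-seq of total RNA. Per the file headers, the authors deposited raw counts of 5′ and 3′ ends and their sum for each library, and a score as a fraction ("Meth%"). No aligner or build is given in the sources used here, and no coordinates are printed. Recomputed for 23703 values, the score was 1 minus the ratio of a position's ends to the weighted mean of its 6 neighbours on each side (weights 1 to 0.5), floored at 0. U12 and 5.8S lacked their first base in 4 files, and their numbering was shifted by 1. Libraries of a sample were averaged (scores) or summed (ends), and the neural stages used libraries as units. Scores were tested with limma 3.58.1 (lmFit, eBayes with trend) over all tested positions, and ends per RNA, of at least 50, with edgeR 4.0.16 (quasi-likelihood), with 18S plus 28S ends as library size, in R 4.3.3. An adjusted p (Benjamini-Hochberg) below 0.05 counts as called. The germ layer fits had the cell line as a block, which pairs samples of the same line. Replicate numbers pair nothing else. Named were the 9 listed sites, the 5 highest unlisted positions per RNA and some of the further positions that passed. Those further positions were not taken strictly by size. Left undescribed was G8 of U5A in mesoderm (0.328, limma adjusted p = 0.0367), among others. So was C24 of U1 in early precursors (-0.323, limma adjusted p = 8.35e-04). Alternatives were DESeq2 1.42.0, other scales and filters, other windows, index sets and left-out samples. RNAs, sites and tests were chosen with earlier results of these data known. Both tests were run on simulated data whose spread was chosen, not fitted, so the simulation does not give their error rates in these data. The sequence of U5A is not reported here.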

Additional observations from a re-analysis of the deposited data

How the results depend on the processing

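With no replicate block, that is without the cell-line pairing of the germ layer fits, the listed sites called were 1 in endoderm and 1 in mesoderm, Am70 in both, and 0 in mesoderm over endoderm. The snRNAs called were all 4, all 4 and 1, which was U4, as with the block. Of the unlisted positions called with the block, 5 of 13 in endoderm, 9 of 16 in mesoderm and 0 of 1 in mesoderm over endoderm were called without it. DESeq2 and limma on log2 values called as many of the 4 snRNAs as edgeR in all 8 comparisons. Over the alternatives, the 21 called read-end results kept the call in 312 cases and lost it in 12, and the 8 called site differences kept it in 114 and lost it in 28. Leaving out 1 sample or library gave 0 to 4 snRNAs called in endoderm, 0 to 1 in mesoderm over endoderm and 0 to 1 in OE, and 0 to 3 listed sites in endoderm, 0 to 1 in mesoderm, 0 to 1 in mesoderm over endoderm, 1 to 3 in early and late precursors and 1 to 4 in mature neurons. Listed sites called were 0 in endoderm, mesoderm and early precursors and 1 in mature neurons with a variance prior without trend. Dividing by the library level, chosen after seeing the data, gave 3, 3, 1 and 1 in endoderm, mesoderm, mature neurons and OE. A limit of 20 ends gave 2 in endoderm and late precursors, 2 neighbours gave 2 in mesoderm and late precursors, and no minimum score gave 0 in endoderm and 1 in mature neurons. Using 3′ ends alone gave 1 in early precursors and mature neurons, and 5′ ends alone 3 in late precursors. The same index set gave 0 in early and 2 in late precursors, and an index term 3 in late precursors. H9 index set 2, also added later, gave 0 sites in endoderm, and 4 snRNAs in mesoderm over endoderm and 2 in OE. H9 alone gave 1 site and 2 snRNAs in OE. For these the cause was not tested.

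Signs turned for differences that had not been called. The U2 scale, level division, summed counts and H9 index set 2 were chosen after seeing the data. With 3′ ends alone these were 0.0923 (Um41, endoderm), 0.0185 (Um41, mesoderm), -0.0738 (Um41, mesoderm over endoderm), -0.0502 (Gm37, late precursors), -0.0143 (Cm45, late precursors), -0.0338 (Gm37, mature neurons), 0.0368 (Um41, OE). With H9 index set 2 these were 0.0612 (Um41, endoderm), -0.0249 (Cm45, endoderm), -2.46e-04 (Gm37, mesoderm), 0.0270 (Um41, mesoderm), -0.0342 (Um41, mesoderm over endoderm), 0.0298 (Um41, OE). With 2 neighbours these were -0.00927 (Cm45, endoderm), 0.0104 (Um41, mesoderm). With summed counts these were -0.00325 (Cm45, endoderm), 0.00272 (Gm37, mesoderm over endoderm). With level division these were 0.0180 (Um41, mesoderm), -0.0112 (Gm37, late precursors), 0.0174 (Cm45, OE). With 5′ ends alone these were -0.00735 (Cm45, mesoderm over endoderm), -0.00260 (Cm45, mature over late). With the U2 scale these were -0.0333 (U1, mesoderm over endoderm), -0.30 (U12, mesoderm over endoderm), -0.0732 (U1, mature over late), -0.0650 (U12, mature over late), -0.0506 (U4, mature over late), -0.10 (U12, OE), -0.10 (U4, OE), -0.0211 (U5A, OE). With TMM these were -0.13 (U12, mesoderm over endoderm). With median-ratio scaling these were -0.22 (U12, mesoderm over endoderm). With H9 alone these were 0.00290 (Um41, OE). Of these, U12 on the U2 scale in mesoderm over endoderm alone was called. Without 1 sample or library the ranges that crossed 0 were -0.0152 to 0.00380 (Gm37, mesoderm over endoderm), -0.10 to 0.33 (U12, mesoderm over endoderm), -0.00960 to 0.0158 (Gm37, late precursors), -0.0572 to 0.0232 (Cm45, OE).

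The U4 and U12 sites are limited by depth. Index set cannot be told apart from group in HUES4 and KOLF2, and the neural stages are 1 sample each, so their p-values measure the spread between libraries. The same holds for the other fits within H9 that took libraries as units.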
